A study of Mus musculus with 9 samples.

Results

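The genes that write, erase and read histone acetylation were followed through the response of mouse dendritic cells to bacterial lipopolysaccharide (LPS) and through knockdown of the histone demethylase JmjD2d. The list of 35 genes holds 11 zinc-dependent deacetylases, 7 sirtuins, 13 acetyltransferases and coactivators, the corepressor scaffolds Ncor1 and Sin3a, and the bromodomain readers Brd2 and Brd3. A gene was measured where a probe set named it and no other gene, and the probe set with the highest mean over the 9 arrays stood for it. By this rule 34 of the 35 were measured, of 19938 genes in all, and Ncor1 had no such probe set in the gene table used here.

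Gene expression had been profiled on 9 Affymetrix arrays in 3 groups of 3 independent cultures. The first group was JmjD2d-knockdown dendritic cells 4 h after 100 ng/ml LPS, the second was wild-type dendritic cells given the same LPS, and the third was wild-type dendritic cells left unstimulated. All cells came from bone marrow progenitors expanded in SCF, IL-3 and IL-6 and were turned into dendritic cells over 8 days with GM-CSF, at first together with SCF. The knockdown cells carried a hairpin against the JmjD2d coding sequence from a retroviral vector and were enriched by histidinol selection, and the wild-type cells had not been infected. The 9 arrays held no control hairpin and no unstimulated knockdown cells, so loss of JmjD2d, infection and selection cannot be told apart. The labels used here give no strain, sex or age.

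Acetyltransferases add acetyl groups to lysines of histone tails, which loosens chromatin and creates binding sites for bromodomain proteins. Deacetylases take them off again, the HDAC enzymes with a zinc ion and the sirtuins with NAD, and most class I enzymes work inside corepressor complexes built on scaffolds such as Sin3a and Ncor1. In macrophages and dendritic cells the p300 and CBP acetyltransferases mark the enhancers of inflammatory genes after Toll-like receptor signalling, and BET proteins such as Brd2 carry the acetyl mark on to transcription elongation.

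The arrays behaved as labelled for LPS. Il6, an inflammatory cytokine, read 12.87, 11.73 and 12.91 (log2) in wild-type cells after LPS, against 5.22, 5.85 and 4.90 before, where it lay below the median of every array (limma adjusted p = 0.00019). Kdm4d, which encodes JmjD2d, read 7.43, 7.11 and 7.40 (log2) in the knockdown arrays, against 7.79, 7.54 and 7.74 in the LPS-treated wild-type arrays, a difference of -0.37 (SE 0.13, adjusted p = 0.278) in groups that did not overlap, and did not pass the test. Of 12 dendritic cell markers, 6 lay above the array's median gene in every knockdown array, 9 in every LPS-treated wild-type array and 10 in every unstimulated array, and Flt3 lay below it in all groups. Of 11 macrophage markers, 11 lay above it in both LPS-treated groups and 10 in unstimulated cells, and 0 of 8 lymphocyte markers did in any group. After LPS 7 of the 11 macrophage markers differed by less than 0 (median -0.08), and limma called 1 higher, against 3.99% of all genes. In knockdown against wild-type cells 6 of the 11 lay below 0 (median -0.05), with differences from -0.99 to 2.74. There limma called 1 of them higher, against 0.401% of all genes. The mean of 11 neutrophil markers ranged from 7.63 to 9.76 in knockdown arrays, 8.93 to 10.40 in LPS-treated wild-type arrays and 8.33 to 9.55 in unstimulated arrays. Neutrophil markers had a difference above 0 after LPS in wild-type cells in 11 of 11 cases (median 0.94) and below 0 in knockdown against wild-type cells in 9 of 11 (median -0.60). Of 10 mast cell and basophil markers, 9 were above 0 after LPS (median 0.14) and 10 below 0 in knockdown cells (median -0.29), and their mean ranged from 6.37 to 6.75 in knockdown, 7.12 to 7.54 in LPS-treated wild-type and 6.75 to 7.03 in unstimulated arrays. The mean of the dendritic cell markers ranged from 8.76 to 9.75 in knockdown arrays, 9.79 to 10.67 in LPS-treated wild-type arrays and 9.72 to 10.78 in unstimulated arrays. The mean of 9 proliferation genes ranged from 9.25 to 9.52 in the knockdown arrays, against 8.52 to 9.16 in the LPS-treated wild-type arrays. These values come from bulk RNA, in which fewer cells of a type and less RNA per cell cannot be told apart, and the part of cell composition in the results that follow was not tested.

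The first comparison asks how LPS changed the acetylation genes of wild-type cells. The deacetylases Hdac5 and Hdac4, the acetyltransferase Kat6b and the coactivator Ncoa1 fell, by 1.61-fold to 2.41-fold, and Hdac1 rose by 1.27-fold. The other 29 of 34 members did not pass the test, in which an adjusted p under 0.05 from limma counts as a change. The 5 changed members stand against 10.9% of all 19938 genes, of which 3.99% rose and 6.86% fell, so the share of members called was near the background. In 13 of 34 members the 3 LPS values and the 3 unstimulated values did not overlap, 10 of them lower and 3 higher after LPS, against 29.3% of all genes, 16.5% lower and 12.8% higher. The median member difference was -0.12 and 24 of 34 lay below 0, whereas the median over all genes was 0.04 with 40.3% below 0. Members were mostly well-expressed genes: 31 of them lay above the median level of all genes, and among all 9969 genes above that level 60.2% of differences were below 0 and 19.6% were called.

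**Figure D1:**
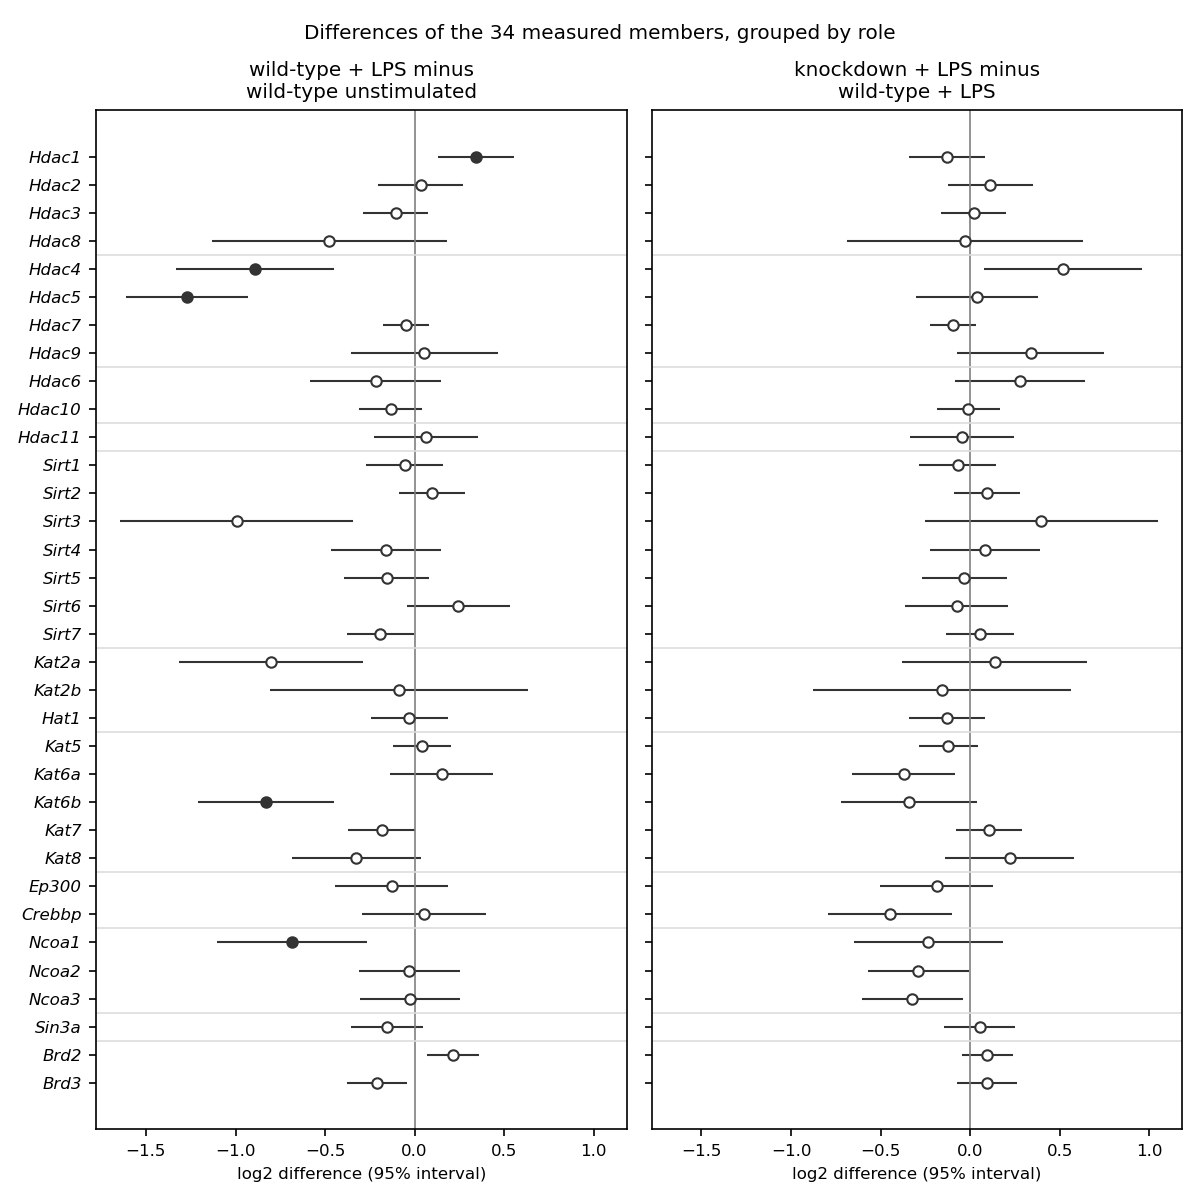
Log2 differences (x axis) of the 34 measured members (rows, grouped by role from deacetylases at the top to BET readers at the bottom) with 95% intervals from limma, for wild-type cells with LPS minus unstimulated wild-type cells (left) and for knockdown minus wild-type cells after LPS (right). Filled points passed an adjusted p under 0.05: Hdac1, Hdac4, Hdac5, Kat6b and Ncoa1 on the left, and no member on the right.

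Class IIa deacetylases shuttle between nucleus and cytoplasm, bind MEF2 transcription factors and have weak enzyme activity of their own. Hdac5 (chromosome 11) read 8.41, 8.68 and 8.38 in wild-type cells after LPS, against 9.85, 9.55 and 9.87 in unstimulated cells. Each LPS array lay below each unstimulated array. LPS-treated cells held 41.5% of the unstimulated level, a log2 difference of -1.27 (SE 0.15, n = 3 against 3, adjusted p = 0.00211).

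Hdac4 (chromosome 1) read 9.29, 9.65 and 9.28 after LPS, against 10.38, 9.92 and 10.59 in unstimulated cells, again without overlap, although replicate 2 of both groups lay nearest to the other group. Its difference was -0.89 (SE 0.19, adjusted p = 0.0233). Hdac4 had another probe set as well, which differed by -0.64 (SE 0.12, adjusted p = 0.012 among all probe sets). The remaining class IIa genes did not pass: Hdac7 had a difference of -0.05 (95% interval -0.17 to 0.08, adjusted p = 0.601) and Hdac9 of 0.05 (-0.36 to 0.47, adjusted p = 0.862). Hdac9 read 6.64 to 7.01 in the wild-type arrays, below every array median (7.217 to 7.315).

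The promoter windows of Hdac5 and Hdac4 are shown because these genes had the largest falls among the members that passed. They run 5′ to 3′ from 250 bases before to 50 bases after an annotated start, from RefSeq on GRCm38.p6, at chr11:102230123-102230422 and chr1:92180292-92180591, both on the minus strand. The Hdac5 window spans the 5′ end of its gene, at base 102230172. The Hdac4 window lies inside its gene, whose 5′ end is at base 92195702, so it surrounds an internal start. Capitals mark matches on either strand to a set of motifs chosen with these results known: the GC box GGGCGG, the CCAAT box CCAAT, the E-box CACGTG, the CRE core TGACGT, AP-1 (TGANTCA), and by name the ISRE core, the MEF2 site and the NF-kB site.
Hdac5: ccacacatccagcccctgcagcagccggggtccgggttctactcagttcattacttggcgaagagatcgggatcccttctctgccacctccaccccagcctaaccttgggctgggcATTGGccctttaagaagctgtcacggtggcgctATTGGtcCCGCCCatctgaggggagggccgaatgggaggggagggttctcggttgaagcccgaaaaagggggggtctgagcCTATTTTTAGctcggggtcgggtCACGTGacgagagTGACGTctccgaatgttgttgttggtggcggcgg
Hdac4: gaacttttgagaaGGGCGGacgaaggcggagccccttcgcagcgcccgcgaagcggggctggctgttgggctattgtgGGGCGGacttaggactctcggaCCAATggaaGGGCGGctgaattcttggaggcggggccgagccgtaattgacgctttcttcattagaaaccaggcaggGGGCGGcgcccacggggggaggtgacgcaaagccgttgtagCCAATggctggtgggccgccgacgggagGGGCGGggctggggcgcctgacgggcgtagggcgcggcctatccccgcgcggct
The Hdac5 window held a MEF2 match, an E-box and a CRE core close together around the start, at -20, 4 and 17 relative to it, besides 2 CCAAT boxes and 1 GC box. A MEF2 match occurred in 3.19% of all 32851 promoter windows, an E-box in 7.15% and a CRE core in 7.51%. Hdac5 was the only member gene with a MEF2 match among the 29 that had a window. That was 1 of 43 member windows, or 2.33%, no more than the 3.19% of all windows. The Hdac4 window held 5 GC boxes and 2 CCAAT boxes, motifs found in 35.7% and 37.4% of all windows. Neither window held the NF-kB motif, the ISRE core or AP-1, which occurred in 4.51%, 3.44% and 7.81% of all windows. None of the capitals overlap between motifs in the Hdac5 and Hdac4 windows.

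Class I deacetylases are the nuclear enzymes of the large corepressor complexes. Hdac1, a catalytic subunit of the Sin3, NuRD and CoREST complexes, read 11.47, 11.75 and 11.46 after LPS, against 11.12, 11.31 and 11.22 before. The groups did not overlap, and the difference was 0.34 (SE 0.09, adjusted p = 0.0498), just inside the threshold. Another probe set that names Hdac1 alone gave 0.34 as well (SE 0.10, adjusted p = 0.0607 among all probe sets). RefSeq lists an Hdac1 pseudogene name under this gene, so the source of either signal is uncertain where the copy is near-identical. Under 15 of the 18 alternative settings the call for Hdac1 was lost, with adjusted p from 0.0309 to 0.154 over all of them. Its partner Hdac2 differed by 0.03 (95% interval -0.21 to 0.27) and Hdac3, the catalytic subunit of the NCoR complexes, by -0.11 (-0.29 to 0.08). Hdac8, a cohesin deacetylase that works outside those complexes, had a difference of -0.48 with a wide interval (-1.13 to 0.18), because LPS replicate 2 read 8.20 while replicates 1 and 3 both read 7.15.

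The class IIb enzymes Hdac6, which deacetylates tubulin, and Hdac10, a polyamine deacetylase, differed by -0.22 and -0.13 (adjusted p = 0.407 and 0.305). Hdac11, the class IV enzyme and a repressor of Il10 in macrophages, differed by 0.06 (adjusted p = 0.768). It too lay below every array median, at 6.43 to 6.94 in the wild-type arrays.

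None of the 7 sirtuins passed the test after LPS, and 2 of them had an unadjusted p under 0.05, against 26.3% of all genes. Sirt3, the main deacetylase of mitochondria, came nearest: it read 8.01, 8.38 and 7.96 after LPS, against 9.20, 8.95 and 9.18 before. These values did not overlap, and the difference of -0.99 (SE 0.28) had an adjusted p of 0.0619, and 0.0442 in the paired fit, which has the replicate number as a block. Sirt7, a nucleolar enzyme, differed by -0.19 (adjusted p = 0.185), and Sirt6, a chromatin deacetylase that restrains NF-kB target genes, by 0.24 (adjusted p = 0.258). Sirt1, which deacetylates the NF-kB subunit p65, differed by -0.06 (95% interval -0.27 to 0.16), and Sirt2, a cytoplasmic tubulin deacetylase, by 0.10 (-0.09 to 0.28). The mitochondrial sirtuins Sirt4 and Sirt5 both differed by -0.16.

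Among the acetyltransferases, Kat6b, a MYST-family enzyme that acts on histone H3 in complexes with Brpf scaffolds, fell. It read 7.83, 8.17 and 7.78 after LPS, against 8.99, 8.70 and 8.58 in unstimulated cells, with no overlap. The log2 difference was -0.83 (SE 0.16, adjusted p = 0.0169). Its paralogue Kat6a did not pass (0.15, 95% interval -0.14 to 0.44, adjusted p = 0.462). The other MYST enzymes were Kat5 (Tip60, 0.04), Kat7 (Hbo1, -0.18) and Kat8 (Mof, which acetylates histone H4, -0.32), with adjusted p from 0.192 to 0.737.

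Kat2a (Gcn5), the acetyltransferase of the SAGA complex, read 8.63, 9.50 and 8.74 after LPS, against 9.74, 9.69 and 9.84 before. Every LPS array lay below every unstimulated array, but LPS replicate 2 by far less than the other LPS arrays, and the difference of -0.80 (SE 0.22) had an adjusted p of 0.0578, and 0.0284 in the paired fit. Kat2b (Pcaf), its paralogue, read 7.74, 9.20 and 8.04 after LPS, against 8.44, 8.43 and 8.36 before. The LPS values lay on both sides of the narrow unstimulated range, and the difference was -0.09 (SE 0.31, adjusted p = 0.876). Hat1, which acetylates newly made histone H4, differed by -0.03 (95% interval -0.24 to 0.18).

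The steroid receptor coactivators bind nuclear receptors and bring in p300 and CBP. Ncoa1 fell: it read 9.45, 9.99 and 9.39 after LPS, against 10.37, 10.15 and 10.36 before. The groups did not overlap, with LPS replicate 2 closest to the unstimulated arrays, and the difference was -0.68 (SE 0.18, adjusted p = 0.0486). Ncoa2 and Ncoa3 both differed by -0.03 (intervals -0.31 to 0.25 and -0.31 to 0.26). Ep300 and Crebbp, the genes of p300 and CBP, differed by -0.13 (-0.44 to 0.19) and 0.05 (-0.29 to 0.40), and the scaffold Sin3a by -0.15 (adjusted p = 0.298).

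Promoter windows of Kat6b and Ncoa1 are given beside those of the deacetylases because these genes fell with them. The first of 2 overlapping Kat6b windows lies at chr14:21499520-21499819 on the plus strand and the Ncoa1 window at chr12:4477133-4477432 on the minus strand, with capitals for the same motifs. This Kat6b window lies inside its gene, whose 5′ end is at base 21499216. The Ncoa1 window spans the 5′ end of its gene, at base 4477206.
Kat6b: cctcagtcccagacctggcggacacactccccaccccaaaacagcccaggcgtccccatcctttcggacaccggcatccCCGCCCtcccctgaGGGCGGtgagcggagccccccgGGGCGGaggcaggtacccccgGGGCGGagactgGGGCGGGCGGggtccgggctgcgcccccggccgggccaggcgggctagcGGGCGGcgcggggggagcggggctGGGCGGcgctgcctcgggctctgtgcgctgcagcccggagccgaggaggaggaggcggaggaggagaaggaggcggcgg
Ncoa1: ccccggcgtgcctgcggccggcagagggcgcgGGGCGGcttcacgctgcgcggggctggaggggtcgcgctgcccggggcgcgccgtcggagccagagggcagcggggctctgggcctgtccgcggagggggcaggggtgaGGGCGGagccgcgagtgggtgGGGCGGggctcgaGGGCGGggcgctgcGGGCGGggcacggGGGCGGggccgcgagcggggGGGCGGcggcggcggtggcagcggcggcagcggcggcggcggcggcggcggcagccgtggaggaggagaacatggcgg
All capitals in these windows are GC boxes, 8 in Kat6b, of which 2 overlap, and 7 in Ncoa1. Of the 43 windows of member genes, 62.8% held a GC box, against 35.7% of all windows. Hdac1 had no window in the table.

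BET readers bind acetylated lysines through paired bromodomains. Brd2 read 11.57, 11.51 and 11.51 after LPS, against 11.39, 11.34 and 11.22 before, and Brd3 read 8.83, 8.68 and 8.78 after LPS, against 9.03, 8.95 and 8.94 before. Neither gene's groups overlapped, with Brd2 above and Brd3 below the unstimulated arrays. The differences were 0.21 (SE 0.06, adjusted p = 0.0654) and -0.21 (SE 0.07, adjusted p = 0.113), and neither passed.

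**Figure D2:**
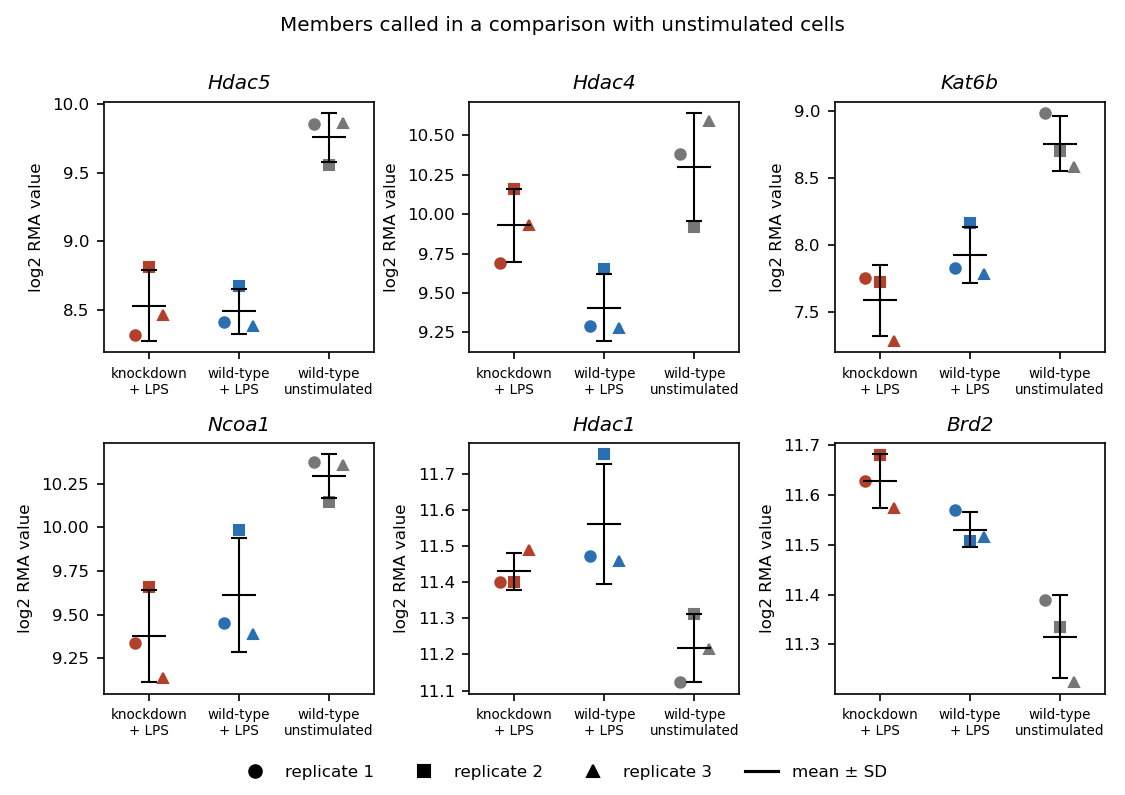
Log2 RMA values (y axis, a separate range in each panel) of 6 members in every array, with knockdown cells after LPS, wild-type cells after LPS and unstimulated wild-type cells from left to right; symbols give the replicate number and bars the mean ± SD (n = 3). Hdac5, Kat6b and Ncoa1 lie lower in both LPS-treated groups than in unstimulated cells, Brd2 higher, and the knockdown mean of Hdac4 lies between those of the wild-type groups.

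The size of the fall differed between replicate numbers. For Hdac5 the arrays numbered 1, 2 and 3 gave LPS differences of -1.45, -0.88 and -1.48. For Hdac4 they were -1.09, -0.27 and -1.31, and for Ncoa1 -0.92, -0.16 and -0.97. The pair numbered 2 had the smallest fall in each of these and in Kat2a (-0.19, against -1.11 and -1.10 for numbers 1 and 3), Kat6b and Sirt3, whereas for Hdac1 it had the largest rise (0.44). Hdac5, Hdac4, Kat6b and Ncoa1 were lower after LPS in all 3 pairs. With the 3 arrays numbered 2 left out, a choice made after seeing the data, 11 members were called in place of 5: all 5 again, and Hdac6, Hdac8, Sirt3, Kat2a, Kat2b and Kat8, all lower. Over all genes the number called without those arrays was 4909, against 2164 with them. Sirt3 then differed by -1.21 (adjusted p = 0.000391) and Kat2a by -1.11 (adjusted p = 0.00059). The paired fit called 7, the same 5 with Sirt3 and Kat2a, against 14.8% of all genes in that fit. The paired calls were 1 member higher, against 5.19% of all genes, and 6 lower, against 9.57%.

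Single arrays also moved the count of 5, and the count over all genes with it. Only 1 member was called without unstimulated replicate 1, without LPS-treated wild-type replicate 1 or without LPS-treated wild-type replicate 3, when 1041, 1062 and 891 of all genes were called, and 2 without unstimulated replicate 3, when 937 were. There were 3 without unstimulated replicate 2, without knockdown replicate 1 or without knockdown replicate 3 (2039, 1693 and 1742 genes), and 8 without LPS-treated wild-type replicate 2 (3424 genes). Hdac5 passed under all 18 alternatives, with differences from -1.46 to -1.15. Hdac5, Kat6b and Ncoa1 had a single probe set each, so the other choices of probe set could not change their differences. Kat6b was lost under 3 of them, without unstimulated replicate 1 or without LPS-treated wild-type replicate 1 or 3. Hdac4 was lost under 4, without replicate 1 or 3 of either wild-type group, and Ncoa1 under 9.

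**Figure D3:**
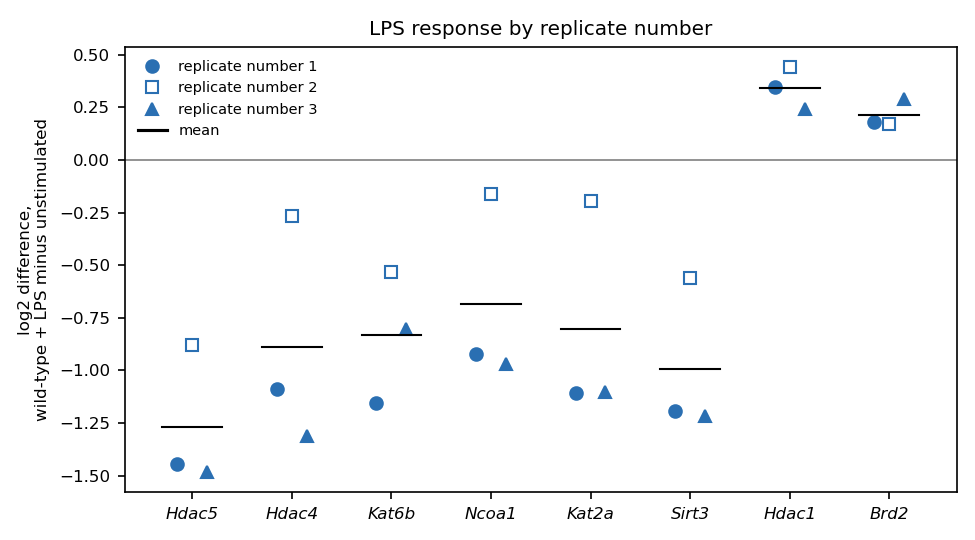
Log2 difference between the LPS-treated and the unstimulated wild-type array of the same replicate number (y axis) for 8 members (x axis); symbols give the number, open squares number 2, and the line the mean of the 3. Number 2 shows the smallest fall in Hdac5, Hdac4, Kat6b, Ncoa1, Kat2a and Sirt3, while Brd2 lies between 0.17 and 0.29 in all 3 pairs.

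The second comparison asks what differed between knockdown and wild-type cells after LPS. None of the 34 members passed the test, and 0.762% of all genes did, 0.401% higher and 0.361% lower in knockdown cells. At an unadjusted p under 0.05 limma counted 5 members, 4 lower and 1 higher, against 13.1% of all genes. The knockdown and wild-type values did not overlap in 8 of 34 members, 6 lower and 2 higher, against 16.6% of all genes, 8.38% lower and 8.21% higher. Among these, Ep300, Hdac7 and Brd2 were separated only barely. For Hdac7 the nearest values were 8.648 in knockdown and 8.651 in wild-type cells. The 95% interval lay within a log2 difference of 1 in either direction for 33 of the 34, the exception being Sirt3 (-0.25 to 1.05), and within 0.5 for 19. The median member difference was -0.02, against -0.03 for all genes.

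The 4 members that were lower at an unadjusted p under 0.05 were acetyltransferases or their coactivators. Crebbp, the gene of CBP, read 11.08, 10.85 and 10.81 in knockdown cells, against 11.54, 11.23 and 11.31 in wild-type cells. All knockdown values lay below all wild-type values, and the 3 pairs of the same number differed by -0.46, -0.38 and -0.50. The difference of -0.45 (SE 0.15, 95% interval -0.79 to -0.10) had an adjusted p of 0.246, and 0.0409 in the paired fit, in which Crebbp was the only member called, against 2.75% of all genes in either direction, 1.51% higher and 1.24% lower. Without the arrays numbered 2 its difference was -0.48 (adjusted p = 0.18). Ep300, its close relative, read 11.29, 11.15 and 11.07 in knockdown cells, against 11.49, 11.29 and 11.29 in wild-type cells. It differed by -0.19 (SE 0.14, adjusted p = 0.616). The Ep300 groups only just failed to overlap, with the highest knockdown value at 11.2871 and the lowest wild-type value at 11.2882.

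Kat6a, a MYST acetyltransferase needed for blood stem cells, read 9.93, 9.94 and 9.91 in knockdown cells, against 10.24, 10.54 and 10.12 in wild-type cells. The knockdown arrays lay close together and below all wild-type LPS arrays, and the difference was -0.37 (SE 0.13, adjusted p = 0.249). Ncoa3 read 10.75, 10.91 and 10.67 in knockdown cells, against 11.16, 11.06 and 11.09 in wild-type cells. These groups did not overlap either, and the difference was -0.32 (SE 0.12, adjusted p = 0.311). Ncoa2 read 9.66, 9.48 and 9.70 in knockdown cells, against 10.04, 9.70 and 9.97 in wild-type cells. The groups overlapped, but the knockdown array was lower in each pair of the same number, and the difference was -0.29 (SE 0.12, adjusted p = 0.366, paired 0.0708).

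Hdac4 was the 1 member higher at an unadjusted p under 0.05. It read 9.69, 10.16 and 9.93 in knockdown cells, against 9.29, 9.65 and 9.28 in wild-type cells, a difference of 0.52 (SE 0.19, 95% interval 0.08 to 0.96, adjusted p = 0.295). Each knockdown value lay above each wild-type LPS value, and its other probe set gave 0.40 (SE 0.12, adjusted p = 0.164 among all probe sets). Hdac5, the member with the largest LPS difference, differed by 0.04 between knockdown and wild-type cells (95% interval -0.30 to 0.38).

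**Figure D4:**
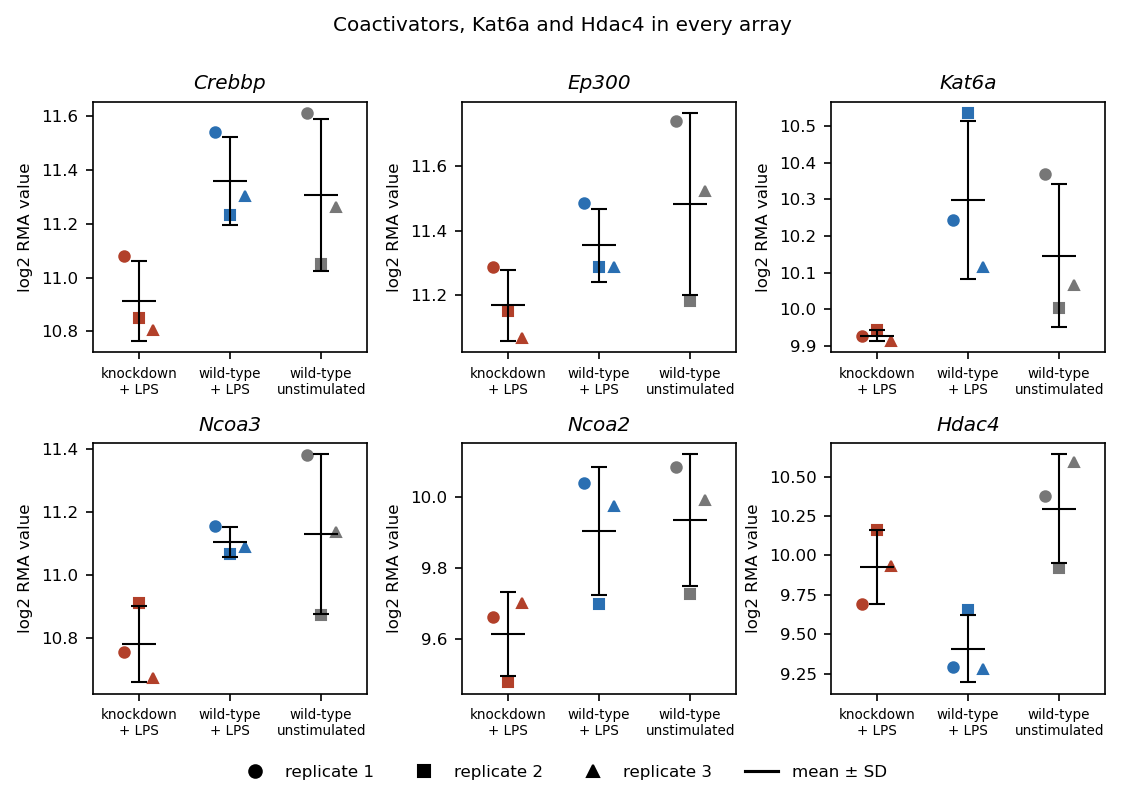
Log2 RMA values (y axis, a separate range in each panel) of Crebbp, Ep300, Kat6a, Ncoa3, Ncoa2 and Hdac4 in every array, with knockdown cells after LPS, wild-type cells after LPS and unstimulated wild-type cells from left to right; symbols give the replicate number and bars the mean ± SD (n = 3). The knockdown values of Crebbp, Ep300, Kat6a and Ncoa3 lie below those of wild-type cells after LPS and those of Hdac4 above, while no member passed the adjusted test. For Ep300 the highest knockdown value (11.2871) and the lowest wild-type LPS value (11.2882) almost coincide.

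By role, 10 of 13 acetyltransferases and coactivators had a difference below 0 between knockdown and wild-type cells, with a median of -0.19, and the same number did after repeated quantile normalization (median -0.19) and after median centring (-0.15). Among the 18 deacetylases 8 lay below 0, with a median of 0.03, and 5 lay below 0 under either of those scalings. Over all genes the median was -0.03 and 59.3% of differences lay below 0, but 46.5% did among genes above the median level, where most members lie. After repeated quantile normalization 10223 of the 19938 genes lay below 0, and 9389 after median centring. Other acetyltransferases were Kat6b (-0.34, adjusted p = 0.438), Ncoa1 (-0.23), Kat2b (-0.16), Hat1 (-0.13) and Kat5 (-0.12) on the lower side, and Kat8 (0.22), Kat2a (0.14) and Kat7 (0.11) on the higher side. The class I deacetylases ranged from -0.13 for Hdac1 to 0.11 for Hdac2, and the sirtuins from -0.08 for Sirt6 to 0.40 for Sirt3. Hdac7 differed by -0.09 with groups that only just did not overlap (adjusted p = 0.522), Hdac6 by 0.28, Hdac10 by -0.01 and Hdac11 by -0.05. Hdac9 differed by 0.34 (95% interval -0.07 to 0.75), with knockdown replicate 2 at 7.68 and replicates 1 and 3 at 6.98 and 7.06. Brd2 and Brd3 differed by 0.10 and 0.09, and Sin3a by 0.05. In the same arrays all 12 dendritic cell markers had a difference below 0, of which limma called 0 and counted 7 at an unadjusted p under 0.05, while the paired fit called 6. The markers' part in these differences was not tested.

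**Figure D5:**
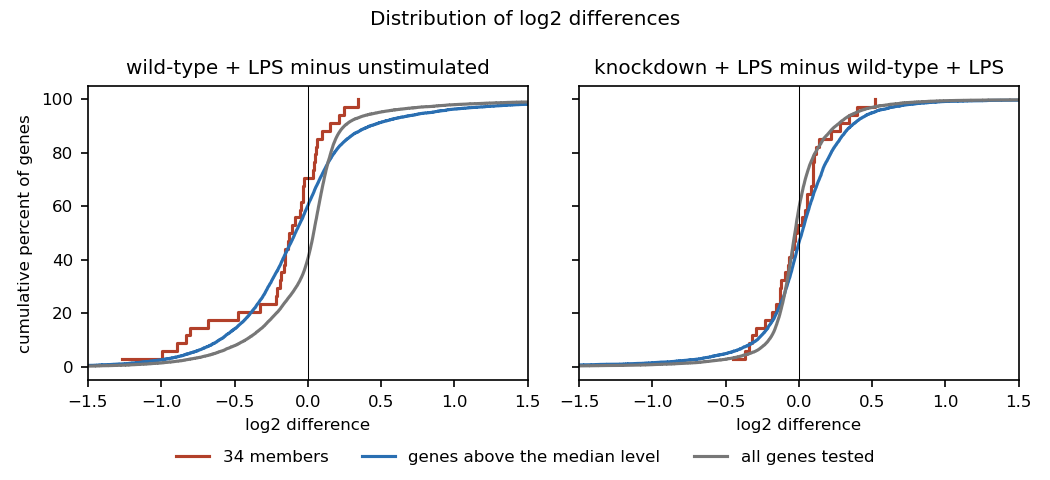
Cumulative percent of genes (y axis) by log2 difference (x axis, shown from -1.5 to 1.5) for the 34 members, for genes above the median level and for all 19938 genes; left, wild-type cells with LPS minus unstimulated wild-type cells, right, knockdown minus wild-type cells after LPS. On the left the members have a median of -0.12, against -0.09 for genes above the median level and 0.04 for all genes, and on the right -0.02, against 0.02 and -0.03.

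LPS-treated knockdown cells were also set against unstimulated wild-type cells, a comparison that shares arrays with both others. Hdac5 (-1.23, SE 0.15, adjusted p = 0.00222), Kat6b (-1.17, SE 0.16, adjusted p = 0.00383) and Ncoa1 (-0.92, SE 0.18, adjusted p = 0.0162) fell, and Brd2 rose (0.31, SE 0.06, adjusted p = 0.0169). These are 3 lower and 1 higher of 34 members, against 6.64% and 4.23% of all genes, or 10.9% in either direction. At an unadjusted p under 0.05 there were 11 members, against 23.1% of all genes, and 10 members did not overlap between the groups, against 27.3% (8 lower, against 15%, and 2 higher, against 12.2%). Brd2 read 11.63, 11.68 and 11.57 in knockdown cells, above all 6 wild-type arrays. The margin was narrow: the lowest knockdown value was 11.5734 and the highest wild-type LPS value 11.5704. Against LPS-treated wild-type cells Brd2 differed by 0.10 (limma adjusted p = 0.563). Kat6b read 7.75, 7.72 and 7.28 in knockdown cells and Ncoa1 9.34, 9.66 and 9.13, below every unstimulated array.

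In the same comparison Hdac4 did not pass (-0.37, adjusted p = 0.316), and its knockdown range overlapped that of unstimulated cells. Nor did Hdac1 (0.21, adjusted p = 0.211). All 13 acetyltransferases and coactivators had a difference below 0, against 45.5% of all genes and 56.1% of genes above the median level, where most members lie. After repeated quantile normalization 12 of 13 lay below 0, against 9816 of all 19938 genes. The paired fit added Crebbp (-0.40, adjusted p = 0.152, paired 0.0199) and Ncoa2 (-0.32, adjusted p = 0.157, paired 0.0191), which made 5 members lower, against 8.65% of all genes, and 1 higher, against 5.62%, or 14.3% in either direction. The count of 4 fell to 2 without knockdown replicate 1 or without unstimulated replicate 3, when 1446 and 1054 of all genes were called, and was 11 without the arrays numbered 2, when 3803 were, against 2166. Brd2 was not among those 11 (difference 0.29, limma adjusted p = 0.0547). Hdac5 and Kat6b passed under all 18 alternatives here, while Brd2 was lost under 3 of them and Ncoa1 under 4. Each of these genes had a single probe set, so the other choices of probe set could not change its difference.

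Subunits of the complexes in which these enzymes work were looked at as further lists. Of 37 measured subunits of deacetylase complexes, 5 rose and 5 fell in wild-type cells after LPS, against 3.99% and 6.86% of all genes, and in the paired fit 3 rose and 6 fell, against 5.19% and 9.57%. Sap30, a Sin3 complex subunit, rose by 1.01 (SE 0.20, adjusted p = 0.0157), Mier3 by 0.95 (SE 0.19) and Ing1, a reader of methylated histone H3 in the Sin3 complex, by 0.41 (SE 0.08). Sap18, another Sin3-associated protein, fell by 0.48 (SE 0.08, adjusted p = 0.0107). In knockdown cells against unstimulated cells 3 rose and 6 fell, against 4.23% and 6.64% of all genes, with Sap30 at 1.17, Ing1 at 0.52, Kdm1a, the demethylase of the CoREST complex, at 0.49 and Sap30l at -0.52.

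Of 40 subunits of acetyltransferase complexes, 8 fell and 0 rose in wild-type cells after LPS, against 6.86% and 3.99% of all genes. Among the 9969 genes above the median level, 1236 fell and 718 rose. In the paired fit 9 of the 40 subunits fell and 2 rose, against 9.57% and 5.19% of all genes. At an unadjusted p under 0.05 limma counted 13 lower and 3 higher, together 16 of 40, against 26.3% of all genes. Ing3, a subunit of the Tip60 complex, fell by 0.41 (SE 0.07, adjusted p = 0.00992). Sgf29, the SAGA subunit that reads histone H3 methylation, fell by 0.72 (SE 0.14). Tada2a, an adaptor of Gcn5, fell by 0.58 (SE 0.11), and Kat14, of the ATAC complex, by 0.55 (SE 0.12). The median difference of this list was -0.12. In knockdown cells against unstimulated cells 5 of them fell and 1 rose, against 6.64% and 4.23% of all genes. With the block 4 of them fell and 3 rose, against 8.65% and 5.62% of all genes. Among those called without the block were Ing3 (-0.56), Meaf6 (-0.61), Tada3 (-0.33) and Morf4l2 (0.56).

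Of 28 measured further acetyl-lysine readers, 2 rose and 3 fell after LPS, against 3.99% and 6.86% of all genes. Sp140, an immune bromodomain protein, rose by 1.60 (SE 0.17, adjusted p = 0.00154). Smarca2, an ATPase of SWI/SNF remodelling, fell by 1.33 (SE 0.24, adjusted p = 0.0122), Zmynd8 by 0.53 (SE 0.09) and Trim24 by 0.44 (SE 0.11, adjusted p = 0.0404, paired 0.061). In knockdown cells against unstimulated cells 2 rose and 4 fell, against 4.23% and 6.64% of all genes, with Sp140 at 1.57, Trim24 at -0.74, Zmynd8 at -0.43 and Bptf, a subunit of the NURF remodeller, at -0.48. Of 12 genes of acetyl-CoA and NAD supply, 1 rose and 0 fell after LPS, against 3.99% and 6.86% of all genes. At an unadjusted p under 0.05 there were 3 higher and 2 lower, against 26.3% of all genes in either direction. The called gene was Nampt, the rate-limiting enzyme of NAD salvage, which rose by 0.92 (SE 0.14, adjusted p = 0.0063). In knockdown cells against unstimulated cells 3 rose and 1 fell, against 4.23% and 6.64% of all genes, with Nampt at 1.05, Slc25a1, the citrate carrier, at 0.38, Nmnat1 at 0.33 (adjusted p = 0.0349, paired 0.0579) and Pdk3 at -0.77.

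Between knockdown and wild-type cells after LPS, limma called 0 genes in each of these 4 lists. At an unadjusted p under 0.05 it counted 5 of the 37 deacetylase complex subunits, 13 of the 40 acetyltransferase complex subunits, 6 of the 28 readers and 4 of the 12 supply genes, against 13.1% of all genes. In the same order 3, 7, 2 and 3 of these were higher and 2, 6, 4 and 1 lower, against 1459 higher and 1155 lower of all 19938 genes. Differences above 0 numbered 21 of 37, 23 of 40, 12 of 28 and 8 of 12, against 8108 of all genes.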

How the data were processed

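The authors deposited log2 values from RMA (robust multi-array averaging), a tool listed without a version in the submitters' processing notes. Array medians lay between 7.217 and 7.315, and no further normalization was applied. Of 35556 probe sets, 21789 named a single gene and were used. Symbols were updated through the Entrez identifier in the RefSeq table of GRCm38.p6 (21698 matched). All 9 arrays entered a single limma model (limma 3.58.1, R 4.3.3) holding 1 mean for each group, tested two-sided with moderated variances (6 residual degrees of freedom, 2.31 from the prior) and Benjamini-Hochberg adjustment over 19938 genes. The fitting was tested on simulated data. The number of arrays limits the precision. Levels of different probe sets were compared only to choose the probe set of a gene and to place genes above or below a median.

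Replicate numbers come from the labels. Deviations from the group means correlated over all genes by 0.138 to 0.481 in 9 same-number pairs and by -0.414 to 0.254 in 18 different-number pairs, ranges that overlap. Over the members the ranges were -0.04 to 0.46 and -0.416 to 0.278. The numbers were used as a block in an alternative only, called the paired fit. All other tests had no block. Named with full values were members called in any comparison and the 4 with the smallest p in the LPS and the knockdown comparison, and of related lists at most 4 called genes per comparison; Ep300, Ncoa2, Kat2a, Kat2b, Sirt3 and Brd3 were added after their values were seen. The members and lists were chosen with earlier results of these data known. Alternatives were the paired fit, other choices of probe set, a level filter, repeated normalization, another variance model, fits on 2 groups and leaving out arrays.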

Additional observations from a re-analysis of the deposited data

How the results depend on the processing

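Counts of members changed after LPS in wild-type cells were 4 to 7 under all alternatives that kept every array, except 3 under median centring and 10 at an unadjusted p. Leaving out 1 array gave 1 to 8, and leaving out the arrays numbered 2, chosen after seeing the data, gave 11. Counts over all genes in that comparison were 891 to 3424 without 1 array, 4909 without number 2 and 5240 at an unadjusted p, against 2164. Between knockdown and wild-type cells the member count of 0 became 1 in the paired fit (Crebbp) and 5 at an unadjusted p. Over all genes the paired fit gave 548 against 152, the fit on the 6 arrays compared gave 33, leaving out 1 array gave 18 to 383, leaving out number 2 gave 668 and an unadjusted p gave 2614. Between knockdown and unstimulated cells members changed numbered 2 to 6 without 1 array, 11 without number 2 and 11 at an unadjusted p, and genes changed 1054 to 2602, 3803 and 4596. The cause of these shifts was not tested, other than that an unadjusted p is a looser rule and leaving out arrays leaves fewer samples. No called difference of a member changed sign under any of these settings. The block by replicate number changed no other call of a member than those of Kat2a, Sirt3, Crebbp and Ncoa2 given above. With 3 arrays a group, differences of the size of most members lay within the intervals given.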
